A study of Mus musculus with 55 samples.

Results

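The 3 members of the NR4A family of orphan nuclear receptors, Nr4a1, Nr4a2 and Nr4a3, were followed through every stage, stimulus and time point of a study of activity-regulated transcription in mouse primary neurons. The family was chosen by name, as all genes that carry the NR4A symbol, and its 3 genes stood among 28492 genes with a symbol in the table of the maturation experiment and 28216 in that of the stimuli experiment. All 3 passed the filter on low counts in both experiments, so each had a value in all 39 comparisons.

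The cultures were forebrain neurons (cortex and hippocampus) of CD1 mouse embryos of mixed sex, taken between embryonic days 16 and 17.5, and RNA was profiled with CEL-Seq2, a method that reads the 3' ends of transcripts, in 55 samples of 21 groups. In the maturation experiment (28 samples), cultures at 7 days in vitro (7DIV) and at an older stage (21DIV) were left unstimulated (basal), depolarised with 55 mM potassium chloride (KCl), or treated with 50 uM bicuculline plus 2.5 mM 4-aminopyridine (4AP/Bic), for 15 or 180 min. The libraries of the older stage are titled 23DIV and are called 21DIV here. In the stimuli experiment (27 samples), 21DIV cultures received 50 uM bicuculline alone (Bic), 55 mM KCl, or the withdrawal of tetrodotoxin (TTXw) after 48 h in 1 uM of this sodium channel blocker, for 15, 45 or 180 min. Bicuculline blocks GABA-A receptors and so raises synaptic activity, 4-aminopyridine blocks potassium channels, and potassium chloride depolarises the membrane directly. Bic and KCl were set against untreated basal cultures, and TTXw against cultures kept silent in TTX (basal TTX). The study says that control neurons went through the same washes in parallel, without naming them as the basal TTX cultures. For the untreated basal wells the study describes only a small replacement of medium. Comparisons of TTXw with these wells therefore cannot tell silencing from washing, nor can those of basal TTX if its cultures were washed. If they were not, TTXw against basal TTX holds the wash as well. No culture in the Bic and KCl arms had been silenced beforehand, whereas every TTXw culture had. Each group held 2 to 4 samples; nothing in the descriptions says that they came from separate dissections, so the p-values measure the spread between these samples, which may be technical.

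NR4A proteins are transcription factors of the steroid and thyroid receptor class for which no classical hormone ligand is known. Their ligand pocket is filled by bulky side chains, so their output is set largely by how much of the protein is made. Nr4a1 (Nur77), Nr4a2 (Nurr1) and Nr4a3 (Nor1) are immediate early genes, transcribed within minutes of calcium entry without new protein synthesis, through CREB bound to cAMP response elements (CRE) in their promoters. Nr4a2 is also required for midbrain dopamine neurons to form, and the 3 receptors have been studied in memory formation in the hippocampus. They bind the NBRE element as monomers, and Nr4a1 and Nr4a2 can pair with the retinoid X receptors (RXR).

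The 3 genes lie on different chromosomes. In GRCm38, the build called mm10 in the submitters' processing notes, GENCODE places Nr4a1 on the plus strand of chromosome 15 (101254269 to 101274795), Nr4a2 on the minus strand of chromosome 2 (57106830 to 57124003) and Nr4a3 on the plus strand of chromosome 4 (48045153 to 48086447). The bases upstream of the start site of each gene are shown because the CRE core, the letters TGACG or CGTCA depending on the strand, is the element through which CREB drives these genes. CRE core letters are in capitals and all else is in lower case. For Nr4a1 and Nr4a2 the 250 bases before the start used by RefSeq (GRCm38.p6) are given 5' to 3' on the strand of the gene. Those of Nr4a1, chr15:101266596-101266845, lie in an intron of its longest transcript, and those of Nr4a2, chr2:57124004-57124253, hold no annotated exon of the gene. For Nr4a3 only 30 bases are given, chr4:48045067-48045096, within the 250 bases before its RefSeq start. That window (chr4:48045055-48045304) begins 98 bases before the gene as GENCODE places it, and its other 152 bases lie in the first exon of a GENCODE transcript that starts farther upstream. The 30 bases shown lie before that exon.
Nr4a1: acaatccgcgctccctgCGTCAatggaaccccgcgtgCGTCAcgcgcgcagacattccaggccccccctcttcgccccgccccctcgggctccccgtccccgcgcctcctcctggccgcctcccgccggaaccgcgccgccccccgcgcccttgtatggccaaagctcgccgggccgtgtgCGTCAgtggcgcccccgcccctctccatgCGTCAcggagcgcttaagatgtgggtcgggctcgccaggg
Nr4a2: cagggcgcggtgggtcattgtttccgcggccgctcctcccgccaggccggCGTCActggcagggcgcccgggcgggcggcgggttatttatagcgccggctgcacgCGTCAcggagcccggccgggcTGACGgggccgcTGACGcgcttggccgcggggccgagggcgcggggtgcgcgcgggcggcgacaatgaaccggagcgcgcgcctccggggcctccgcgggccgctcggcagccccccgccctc
Nr4a3: aggagggTGACGtagcgtcccatgtCGTCA

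Each of the 3 upstream windows held 4 CRE core matches, with both strands searched. Of 32851 windows of this length in the RefSeq promoter table, 17.8% held at least 1 match and 0.137% held 4 or more. The matches of Nr4a1 all read CGTCA and fell in 2 pairs, centred 231 and 211 bases and 67 and 38 bases before the start. Those of Nr4a2 spanned 200 to 107 bases before the start, and those of Nr4a3 were centred between 229 and 145 bases before its RefSeq start, the nearest of them inside that annotated exon. No window held the full element TGACGTCA, which contains the core on both strands (1.55% of all windows), the NBRE AAAGGTCA (1.34%) or a CArG box, the site of serum response factor (1.47%). A TATAAA box was found in the window of Nr4a2, read as TTTATA on the strand of the gene, and in 12.4% of all windows. The windows were rich in G and C, at 74.4% for Nr4a1, 80.0% for Nr4a2 and 63.6% for Nr4a3. The CRE core itself contains the letters CG, and the shares over all windows were not matched for G and C. A match of letters is a description of the window and not a measured binding site.

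**Figure D1:**
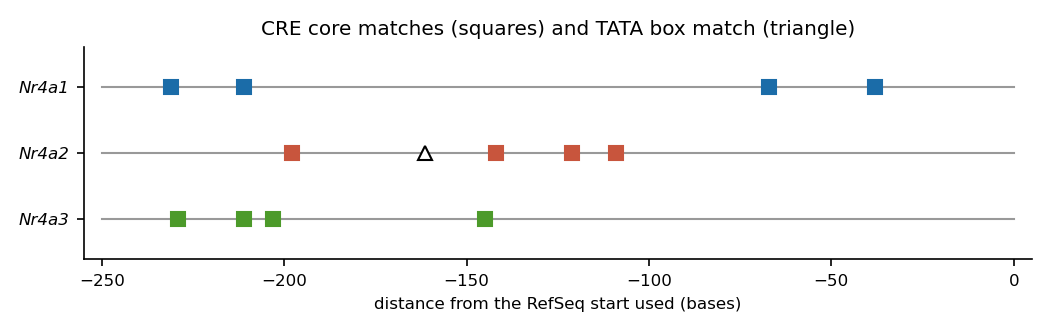
Positions of CRE core matches (squares) and the TATAAA box match (triangle) in the 250 bases before the start of each NR4A gene. The horizontal axis is the distance from the start in bases, and each row holds 4 squares.

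Depth and culture make-up frame all values below. Summed over genes, depth lay between 1659717 and 4474972 counts in the 7DIV samples, between 1784169 and 14012872 in the 21DIV samples of the maturation experiment, and between 1177504 and 3909485 in the stimuli experiment. Levels are in CPM, counts scaled to a common library size by the trimmed mean of M-values (TMM), each gene read from its transcript with the most counts. Levels of different members are not ranked against each other, and their ratios within a sample serve only to compare groups. Nr4a1 counts ranged from 82 to 720 per sample in the maturation experiment and Nr4a3 counts from 187 to 2556. The lowest counts of all were those of Nr4a1 and Nr4a2 in silenced cultures, 5 to 7 and 6 to 10 per sample. Every basal group had high summed levels of 7 neuronal markers (3552 to 7276 CPM), while endothelial markers were near 0 (at most 2.90 CPM) and microglial markers low (2.66 to 17.2 CPM). A change is called at a Benjamini-Hochberg adjusted p under 0.05 in edgeR's quasi-likelihood test over all genes, together with a fold of at least 1.5. Where groups are said not to overlap, this describes their samples only, as the share of all genes without overlap was not counted.

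The first question was how the resting level of the family changed as the cultures matured. All 3 members were lower at 21DIV than at 7DIV, Nr4a2 and Nr4a3 by far more than Nr4a1. In this comparison 14.9% of genes were called lower, so a call by itself was common. Nr4a3 measured 472, 515 and 578 CPM in the 7DIV basal samples and 64.5, 76.5 and 79.9 CPM in those of 21DIV. The groups were far apart, and the log2 fold change was -2.80 ± 0.14 (SE, n = 3 and 3; edgeR adjusted p = 1.3e-08).

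Nr4a2 measured 40.5, 57.4 and 68.2 CPM at 7DIV and 6.26, 7.26 and 8.41 CPM at 21DIV. These groups did not overlap either, with a log2 fold change of -2.89 ± 0.24 (edgeR adjusted p = 9.9e-07), rank 10462 of 10510 genes ordered from the highest change. Nr4a1 measured 38.8, 50.7 and 59.5 CPM at 7DIV and 27.3, 30.6 and 37.1 CPM at 21DIV. Here the groups were narrowly separate and the log2 fold change was -0.61 ± 0.20 (edgeR adjusted p = 0.030). The call of Nr4a1 was lost without 7DIV replicate 3 or 4 or without 21DIV replicate 1 or 2 (adjusted p from 0.066 to 0.093 in edgeR) and in a fit on all samples of the experiment (0.070), whereas those of Nr4a2 and Nr4a3 held without any single sample.

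Between these stages the make-up of the cultures moved as well. The summed level of 6 astrocyte markers rose from between 105 and 209 CPM to between 501 and 579 CPM, that of 5 oligodendrocyte markers from between 239 and 446 CPM to between 1524 and 2223 CPM, and that of the neuronal markers from between 5186 and 5430 CPM to between 6162 and 7276 CPM. Their part in the fall of the NR4A genes was not tested, and in bulk RNA fewer cells of a type and less RNA per cell cannot be told apart. Within a sample, the log2 ratio of Nr4a1 to Nr4a2 was -0.14 ± 0.68 (SD, n = 3) at 7DIV and 2.04 ± 0.18 (n = 3) at 21DIV. The ratio of Nr4a2 to Nr4a3 was -3.25 at both stages (SD 0.24 and 0.23).

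Other receptors and partners of the family were measured in the same comparison, where 18.2% of all genes were called higher and 33.1% were called in either direction. Of 20 other nuclear receptors tested in the basal samples, 8 were called higher and 2 lower, with a median log2 fold change of 0.61 against 0.01 over all genes. Those higher included Nr1d2, a circadian repressor (2.52 ± 0.22), Pgr, the progesterone receptor (2.41 ± 0.35), Thrb, a thyroid hormone receptor (2.25 ± 0.31), and Nr3c1, the glucocorticoid receptor (2.03 ± 0.28), all as log2 fold change ± SE. Of the RXR partners, Rxra (2.22 ± 0.44) and Rxrg (1.63 ± 0.47) were called higher and Rxrb was not (0.05 ± 0.26). Among the corepressors and coregulators of NR4A proteins, 2 of 8 were called and both were lower, Trim28 (-0.82 ± 0.12) and Hdac2, a histone deacetylase (-0.74 ± 0.12).

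The next question was whether the family responded to stimulation at 7DIV. After 15 min, no member was called with either stimulus, and no gene was called at all (0% for KCl and 0% for 4AP/Bic; edgeR, with 659 and 793 genes at an unadjusted p under 0.05, none of them a member, and 3 genes called by DESeq2 in each). After 180 min of KCl, all 3 members were called higher, where 1.05% of all genes were.

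Nr4a2 reached 175, 218 and 235 CPM after 180 min of KCl, each above every basal value. Its log2 fold change was 1.91 ± 0.27 (n = 3 and 3; edgeR adjusted p = 7.4e-05). Nr4a1 reached 127.8, 192 and 193 CPM, again with no overlap, and its log2 fold change was 1.79 ± 0.27 (edgeR adjusted p = 0.00020). Nr4a3 measured 769, 770 and 1078 CPM, also above its basal samples, a log2 fold change of 0.74 ± 0.20 (edgeR adjusted p = 0.040). The call of Nr4a3 rested on single samples, since it was lost without 7DIV basal replicate 2, 3 or 4 or 7DIV KCl 180 min replicate 2 or 3 (adjusted p from 0.054 to 0.26). All 3 were also higher at 180 than at 15 min of KCl (1.54% of genes called higher), by 1.95 ± 0.27, 2.15 ± 0.27 and 0.73 ± 0.20 on the log2 scale for Nr4a1, Nr4a2 and Nr4a3, the last again lost without one of 5 of the 6 samples (adjusted p up to 0.25).

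With 4AP/Bic at 7DIV, none was called after 180 min, when 0% of genes were called in edgeR (701 genes at an unadjusted p under 0.05, none a member, and 0 genes in DESeq2). Nr4a1 measured 67.1, 70.4 and 77.3 CPM, above all 3 basal samples, with a log2 fold change of 0.53 ± 0.28 and a 95% interval from -0.01 to 1.07. Nr4a2 measured 73.5, 79.9 and 83.8 CPM, also above its basal samples, with a change of 0.50 ± 0.27. Nr4a3 measured 560, 603 and 699 CPM, overlapping the basal range, with a change of 0.25 ± 0.20. From 15 to 180 min of 4AP/Bic none was called either (0% of genes; 2 members at an unadjusted p under 0.05, 0 in DESeq2).

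**Figure D2:**
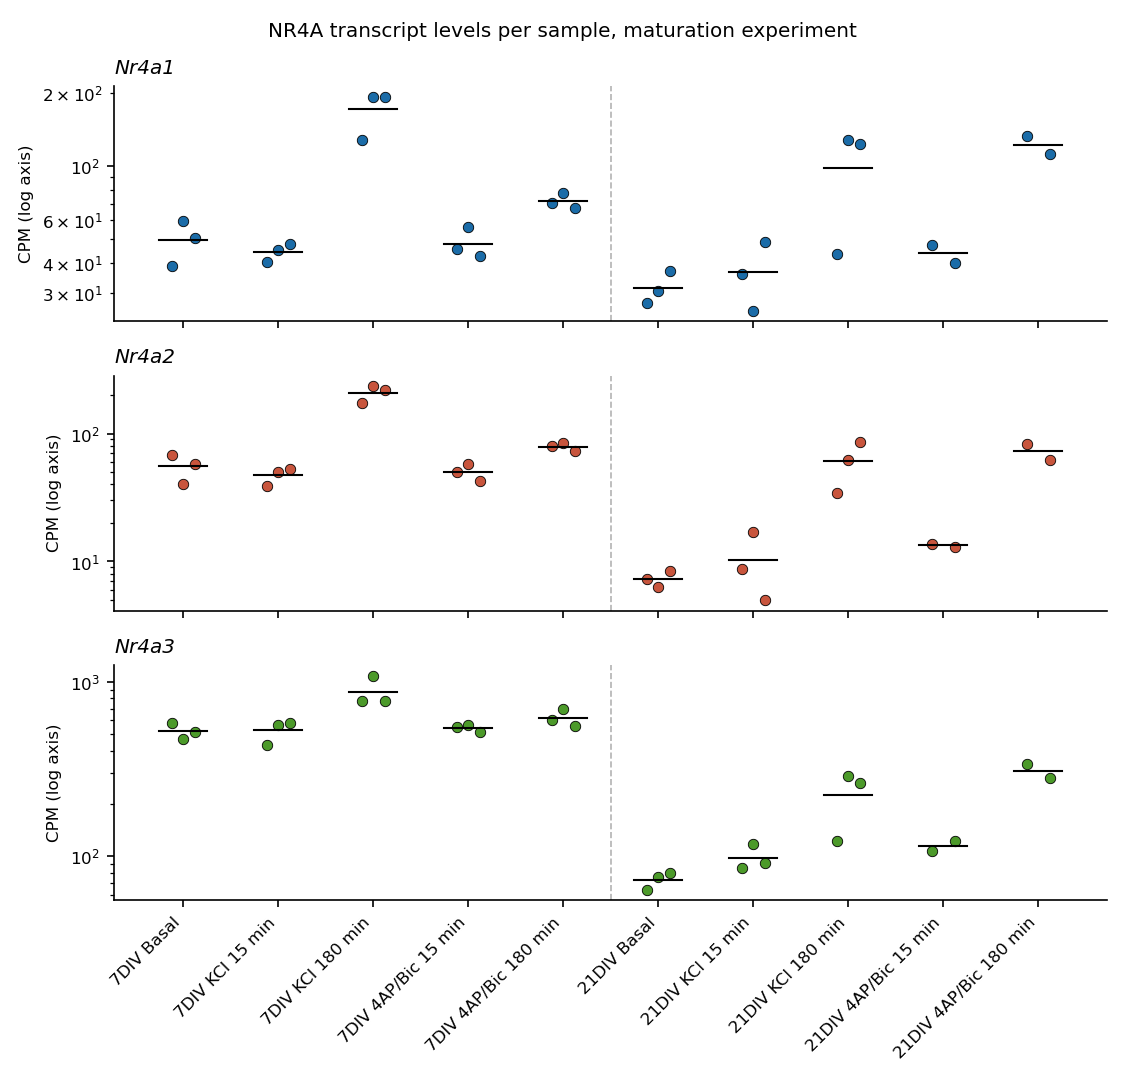
Level of each NR4A gene in every sample of the maturation experiment, in CPM on a logarithmic axis, with points for samples and bars for group means. At 21DIV the basal level of Nr4a3 (64.5 to 79.9 CPM) lies below all 7DIV samples (436 to 1078 CPM), and the 21DIV groups at 180 min lie above basal.

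At 21DIV the same stimuli were applied to cultures with low resting levels. After 15 min of KCl 6.25% of genes were called but no NR4A member, in edgeR or DESeq2, with none at an unadjusted p under 0.05. The log2 changes were 0.22 ± 0.26, 0.40 ± 0.32 and 0.41 ± 0.20 for Nr4a1, Nr4a2 and Nr4a3. Nr4a2 was uneven among these 3 samples, at 4.98, 8.72 and 16.9 CPM. Of 7 immediate early genes kept as a reference, 5 were called higher at this time and 1 lower.

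After 180 min of KCl all 3 members were called higher (2.98% of genes were). Nr4a2 measured 34.3, 62.2 and 86.1 CPM; its log2 fold change of 3.03 ± 0.30 (n = 3 and 3; edgeR adjusted p = 1.0e-07) was rank 23 from the top among 11746 genes. Nr4a1 measured 43.4, 123.9 and 128.7 CPM with a change of 1.63 ± 0.26 (edgeR adjusted p = 0.00031), and Nr4a3 measured 122, 262 and 289 CPM with a change of 1.60 ± 0.20 (edgeR adjusted p = 1.1e-05). Replicate 1 gave the lowest value of every member, yet in each case it lay above the 3 basal samples, and all 3 calls held without it. The interval of Nr4a2 (2.44 to 3.62) did not overlap those of Nr4a1 (1.11 to 2.15) and Nr4a3 (1.21 to 2.00), though the difference between members was not tested. Summed oligodendrocyte markers stood at 697 to 1037 CPM in this group against 1524 to 2223 CPM in basal cultures (1 of 4 tested called lower), neuronal markers at 5415 to 6116 CPM against 6162 to 7276 CPM (1 of 7 called lower) and microglial markers at 9.34 to 13.0 CPM against 4.29 to 8.48 CPM (0 of 3 called), and their part in the result was not tested.

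With 4AP/Bic at 21DIV, 0.0511% of genes were called after 15 min and none was an NR4A gene in edgeR or DESeq2, although Nr4a2 and Nr4a3 had an unadjusted p under 0.05. Nr4a2 measured 13.1 and 13.7 CPM and Nr4a3 107 and 123 CPM, in both cases above the 3 basal samples, with log2 changes of 0.85 ± 0.40 and 0.64 ± 0.23. After 180 min all 3 were called higher, when 7.39% of genes were. Nr4a2 measured 62.7 and 83.1 CPM, a log2 fold change of 3.30 ± 0.32 (n = 2 and 3; edgeR adjusted p = 4.5e-08). Nr4a3 measured 282 and 337 CPM, a change of 2.07 ± 0.22 (edgeR adjusted p = 2.1e-07), and Nr4a1 111.8 and 132.6 CPM, a change of 1.94 ± 0.28 (edgeR adjusted p = 2.5e-05). None of these groups overlapped its basal samples, which groups of 2 and 3 samples can do without a real difference. Against the same basal cultures, oligodendrocyte markers stood at 733 to 1174 CPM (1 of 4 tested called lower and 1 higher), neuronal markers at 5301 to 5838 CPM (3 of 7 called lower), astrocyte markers at 208 to 458 CPM against 501 to 579 CPM (2 of 6 called lower) and microglial markers at 19.5 to 20.6 CPM (2 of 3 called higher, C1qa at 0). Their part was not tested.

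The later time point carried most of the response at this age. From 15 to 180 min of KCl all 3 rose, where 0.647% of genes were called higher, by 1.41 ± 0.26 for Nr4a1, 2.63 ± 0.29 for Nr4a2 and 1.20 ± 0.20 for Nr4a3 on the log2 scale. The change of Nr4a2 was the 7th highest of 11746. Fitted on the 6 samples compared alone, none of these 3 calls was kept (edgeR adjusted p = 0.054 to 0.16). From 15 to 180 min of 4AP/Bic all 3 rose as well (6% of genes called higher), by 1.49 ± 0.34, 2.45 ± 0.39 and 1.42 ± 0.25, and the call of Nr4a1 was lost without 4AP/Bic 15 min replicate 2 (adjusted p = 0.053).

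Whether the responses differed between the stages was tested directly as the response at 21DIV minus that at 7DIV, called on the adjusted p alone. For 4AP/Bic at 180 min the difference was called for all 3 members, all higher at 21DIV, where 2.58% of genes were. It was 2.80 ± 0.42 on the log2 scale for Nr4a2 (edgeR adjusted p = 0.00020), 1.82 ± 0.29 for Nr4a3 (edgeR adjusted p = 0.00053) and 1.41 ± 0.40 for Nr4a1 (edgeR adjusted p = 0.036). The call of Nr4a1 was the weakest, being lost without any one of 9 of the 11 samples involved (edgeR adjusted p up to 0.16) and with counts summed over transcripts (0.061). The 9 were both 21DIV 4AP/Bic 180 min samples, 21DIV basal replicates 1 and 2, all 3 of the 7DIV 4AP/Bic 180 min samples and 7DIV basal replicates 3 and 4.

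For KCl at 180 min the difference was not called for any member (0.775% of genes called; 0 members in DESeq2, 2 at an unadjusted p under 0.05). It was 1.13 ± 0.40 for Nr4a2 (edgeR adjusted p = 0.18), 0.86 ± 0.28 for Nr4a3 (edgeR adjusted p = 0.14) and -0.16 ± 0.38 for Nr4a1 (edgeR adjusted p = 0.90). This outcome depended on 1 library. Without 21DIV KCl 180 min replicate 1, in which all 3 members were lowest, the difference was called for Nr4a2 (1.41, edgeR adjusted p = 0.034) and Nr4a3 (1.15, edgeR adjusted p = 0.0041) and for Nr4a1 was 0.19. At 15 min neither stimulus gave a called difference (2.03% of genes for KCl and 0.00851% for 4AP/Bic; none of the members in DESeq2 or at an unadjusted p under 0.05).

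A larger fold did not mean a higher level. Nr4a3 after 180 min of KCl at 21DIV (122 to 289 CPM) and of 4AP/Bic (282 and 337 CPM) stayed below the 3 unstimulated samples of 7DIV (472 to 578 CPM). Nr4a2 at 21DIV after 180 min of KCl (34.3 to 86.1 CPM) spanned its unstimulated range at 7DIV (40.5 to 68.2 CPM). Nr4a1 differed, as its 180 min KCl samples at 21DIV, other than replicate 1, and both 4AP/Bic samples (111.8 to 132.6 CPM) lay above its 7DIV basal samples. These levels are given as a description without a test.

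**Figure D3:**
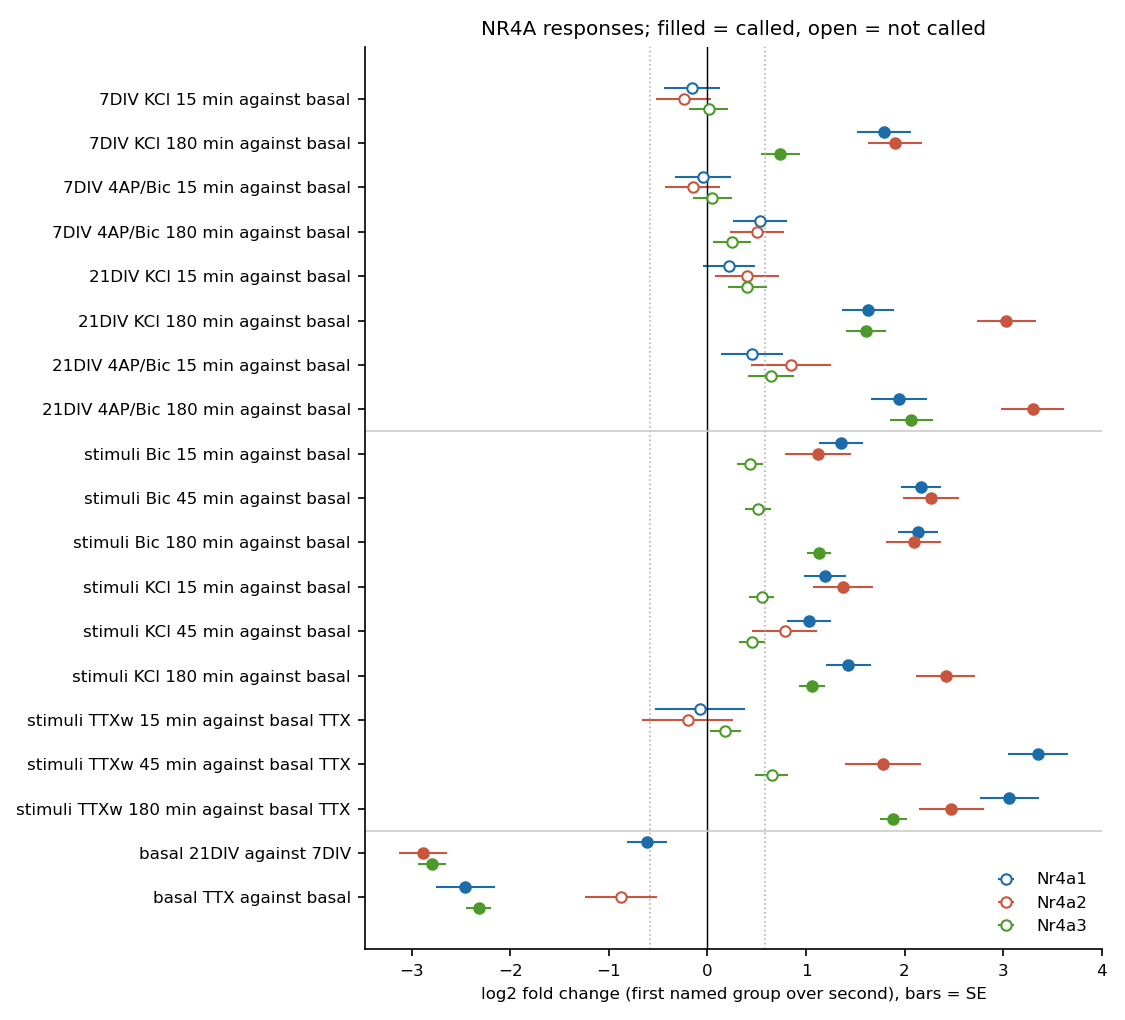
Log2 fold change of each NR4A gene in comparisons with the matching baseline, and in the comparisons of stage and of silencing, with bars for the SE. Filled points were called and open points were not, and dotted lines mark a fold of 1.5. Nr4a2 at 180 min in 21DIV cultures of the maturation experiment has the highest values on the maturation rows (3.03 with KCl and 3.30 with 4AP/Bic).

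The stimuli experiment added a 45 min time point and a silenced baseline. Nr4a1 and Nr4a3 were lower after 48 h of TTX in a comparison in which 10.8% of all genes were called lower. Nr4a1 measured 17.2, 18.6 and 19.0 CPM in basal cultures and 2.17, 3.48, 3.58 and 4.66 CPM in basal TTX. The log2 fold change was -2.46 ± 0.30 (n = 4 and 3; edgeR adjusted p = 2.2e-08). Nr4a3 measured 126.2, 152 and 162 CPM against 25.6, 26.5, 28.6 and 34.7 CPM, a change of -2.32 ± 0.13 (edgeR adjusted p = 5.6e-17). Both pairs of groups were widely separate.

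Nr4a2 measured 7.96, 8.02 and 8.19 CPM in basal cultures and 3.62, 3.99, 4.07 and 6.44 CPM in TTX. The groups did not overlap, but the change of -0.88 ± 0.36 was not called (edgeR adjusted p = 0.064), and its interval ran from -1.59 to -0.16. Without basal TTX replicate 3, the highest of the silenced samples, it was called (-1.05, edgeR adjusted p = 0.044). Among 7 reference immediate early genes 6 were called lower with TTX. Silenced cultures also held more of the glial transcripts, with astrocyte markers at 1930 to 2489 CPM against 722 to 993 CPM, oligodendrocyte markers at 1492 to 1545 CPM against 528 to 803 CPM and neuronal markers at 3552 to 4114 CPM against 4733 to 4979 CPM. Their part in the lower NR4A levels was not tested.

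With Bic, Nr4a1 and Nr4a2 were called higher from the first time point and Nr4a3 at the last, after smaller rises that were not called. At 15 min (2.4% of genes called higher), Nr4a1 measured 42.3 and 49.6 CPM, a log2 fold change of 1.36 ± 0.23 (n = 2 and 3; edgeR adjusted p = 0.00014). Nr4a2 measured 11.7 and 21.1 CPM, a change of 1.13 ± 0.34 (edgeR adjusted p = 0.045), and this call was fragile, being lost without any of the 3 basal samples or without Bic 15 min replicate 2, when the change was 0.56 (adjusted p from 0.076 to 0.72). Nr4a3 measured 185 and 209 CPM, above all basal samples, with a change of 0.43 ± 0.13 that was not called (edgeR adjusted p = 0.056).

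At 45 min of Bic (4.5% of genes called higher), Nr4a1 measured 74.2 and 89.0 CPM, a log2 fold change of 2.17 ± 0.20 (edgeR adjusted p = 4.4e-10). Nr4a2 measured 38.8 and 39.04 CPM, a change of 2.27 ± 0.29 (edgeR adjusted p = 4.7e-07). Nr4a3 measured 205 and 214 CPM, and its change of 0.51 ± 0.13 had an edgeR adjusted p of 0.0078 but fell short of a 1.5-fold difference. It passed that fold without basal replicate 5 or Bic 45 min replicate 1 (0.59 in each).

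At 180 min of Bic all 3 were called higher, when 0.69% of genes were. Nr4a1 measured 78.1 and 82.7 CPM and ranked 18th of 12027 genes with 2.14 ± 0.20, and Nr4a2 measured 30.2 and 38.7 CPM and ranked 20th with 2.09 ± 0.28. Nr4a3 measured 315 and 329 CPM, a change of 1.13 ± 0.13 (edgeR adjusted p = 5.5e-08). In the steps between times, no member was called from 15 to 45 min (0.141% of genes; 0 in DESeq2, 2 at an unadjusted p under 0.05), with changes of 0.81 ± 0.22, 1.14 ± 0.31 and 0.08 ± 0.14. From 45 to 180 min Nr4a3 alone was called (0.62 ± 0.14, edgeR adjusted p = 0.0074; 1.21% of genes called higher), and this was lost without any one of the 4 samples (adjusted p from 0.053 to 0.091). Over the same step Nr4a1 and Nr4a2 changed by -0.03 ± 0.20 and -0.17 ± 0.27.

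Cell type markers moved in the early Bic groups. Astrocyte markers summed to 1277 to 1331 CPM at 15 min and 1424 to 1667 CPM at 45 min, against 722 to 993 CPM in basal cultures, with 1 and 4 of 6 called higher. Neuronal markers summed to 5843 to 5941 CPM and 5644 to 5860 CPM against 4733 to 4979 CPM (2 of 7 called higher at each time), and oligodendrocyte markers to 803 to 881 CPM and 752 to 995 CPM against 528 to 803 CPM (1 of 4 tested called higher at each time). At 180 min of Bic no tested marker of any of these types was called, where 0.765% of all genes were called in either direction. The part of the markers was not tested at any of these times.

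The same 3 times were taken with KCl. At 15 min (4.53% of genes called higher), Nr4a1 measured 33.7 and 48.9 CPM, a log2 fold change of 1.19 ± 0.22 (edgeR adjusted p = 0.00024), and Nr4a2 14.2 and 27.1 CPM, a change of 1.38 ± 0.30 (edgeR adjusted p = 0.0023). Both calls were lost without KCl 15 min replicate 2, the higher sample (0.92 and 0.84, adjusted p = 0.059 and 0.29). Nr4a3 measured 206 and 225 CPM, a change of 0.55 ± 0.13 (edgeR adjusted p = 0.0040) just below the fold of 1.5. It passed that fold without basal replicate 5 or KCl 15 min replicate 1 (0.62 and 0.65). In the maturation experiment, 15 min of KCl at 21DIV gave 0.22 ± 0.26, 0.40 ± 0.32 and 0.41 ± 0.20 for Nr4a1, Nr4a2 and Nr4a3. No member was called there, and the difference between the experiments was not tested.

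At 45 min of KCl (0.607% of genes called higher), Nr4a1 measured 36.3 and 38.1 CPM, a change of 1.03 ± 0.22 (edgeR adjusted p = 0.014) that was lost without basal replicate 1 or 5 or either KCl sample (adjusted p from 0.051 to 0.15). Nr4a2 measured 11.5 and 16.5 CPM, above its basal samples, and its change of 0.78 ± 0.33 was not called (edgeR adjusted p = 0.35). Nr4a3 measured 199 and 205 CPM, a change of 0.46 ± 0.13 (edgeR adjusted p = 0.096).

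At 180 min of KCl all 3 were called higher (0.507% of genes were). Nr4a2 measured 42.8 and 43.6 CPM, its highest values in this experiment, and the change of 2.42 ± 0.30 (edgeR adjusted p = 2.2e-06) ranked 15th of 12027. Nr4a1 measured 46.8 and 51.1 CPM, a change of 1.43 ± 0.23 (edgeR adjusted p = 0.00022), and Nr4a3 290 and 323 CPM, a change of 1.06 ± 0.13 (edgeR adjusted p = 2.2e-06). From 15 to 45 min no member was called (0.416% of genes; 0 members in DESeq2 or at an unadjusted p under 0.05), and from 45 to 180 min Nr4a2 was (1.63 ± 0.32, edgeR adjusted p = 0.0088; 0.0915% of genes called higher). That call was lost without any one of the 4 samples (adjusted p from 0.055 to 0.43). For this step DESeq2 gave no adjusted p for Nr4a1 or Nr4a2 and called Nr4a3 (0.60, adjusted p = 0.012), which edgeR did not.

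Markers moved with KCl as well. At 15 min astrocyte markers summed to 1276 to 1346 CPM (2 of 6 called higher), oligodendrocyte markers to 859 to 986 CPM (2 of 4 tested called higher) and neuronal markers to 5658 to 6134 CPM (2 of 7 called higher). At 45 min 1 of 6 astrocyte markers was called higher, with sums of 1128 and 1129 CPM. At 180 min oligodendrocyte markers stood at 312 to 384 CPM (1 of 4 called lower), and no neuronal or astrocyte marker was called. Their part in the NR4A changes was not tested.

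Set directly against each other, Bic and KCl were called different for Nr4a1 and Nr4a2 at 45 min, and for no member at 15 or 180 min. At 15 min no gene was called (0% of genes, 552 at an unadjusted p under 0.05 and 1 in DESeq2). At 45 min 0.499% of genes were called higher with Bic. Nr4a1 was higher with Bic by 1.14 ± 0.22 on the log2 scale (n = 2 and 2, edgeR adjusted p = 0.0029). Nr4a2 was higher by 1.48 ± 0.31 (edgeR adjusted p = 0.0083). Nr4a3 differed by 0.06 ± 0.14, with an interval from -0.22 to 0.34. The 2 calls were lost without Bic 45 min replicate 2 (adjusted p = 0.15 and 0.086) or KCl 45 min replicate 1 (adjusted p = 0.14 and 0.37), and that of Nr4a1 also without KCl 45 min replicate 2 (adjusted p = 0.051). At 180 min (0.732% of genes called) no member was called in edgeR, nor in DESeq2, which gave no adjusted p for Nr4a2, and 1 had an unadjusted p under 0.05, namely Nr4a1, with 0.71 ± 0.22 (edgeR adjusted p = 0.15).

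**Figure D4:**
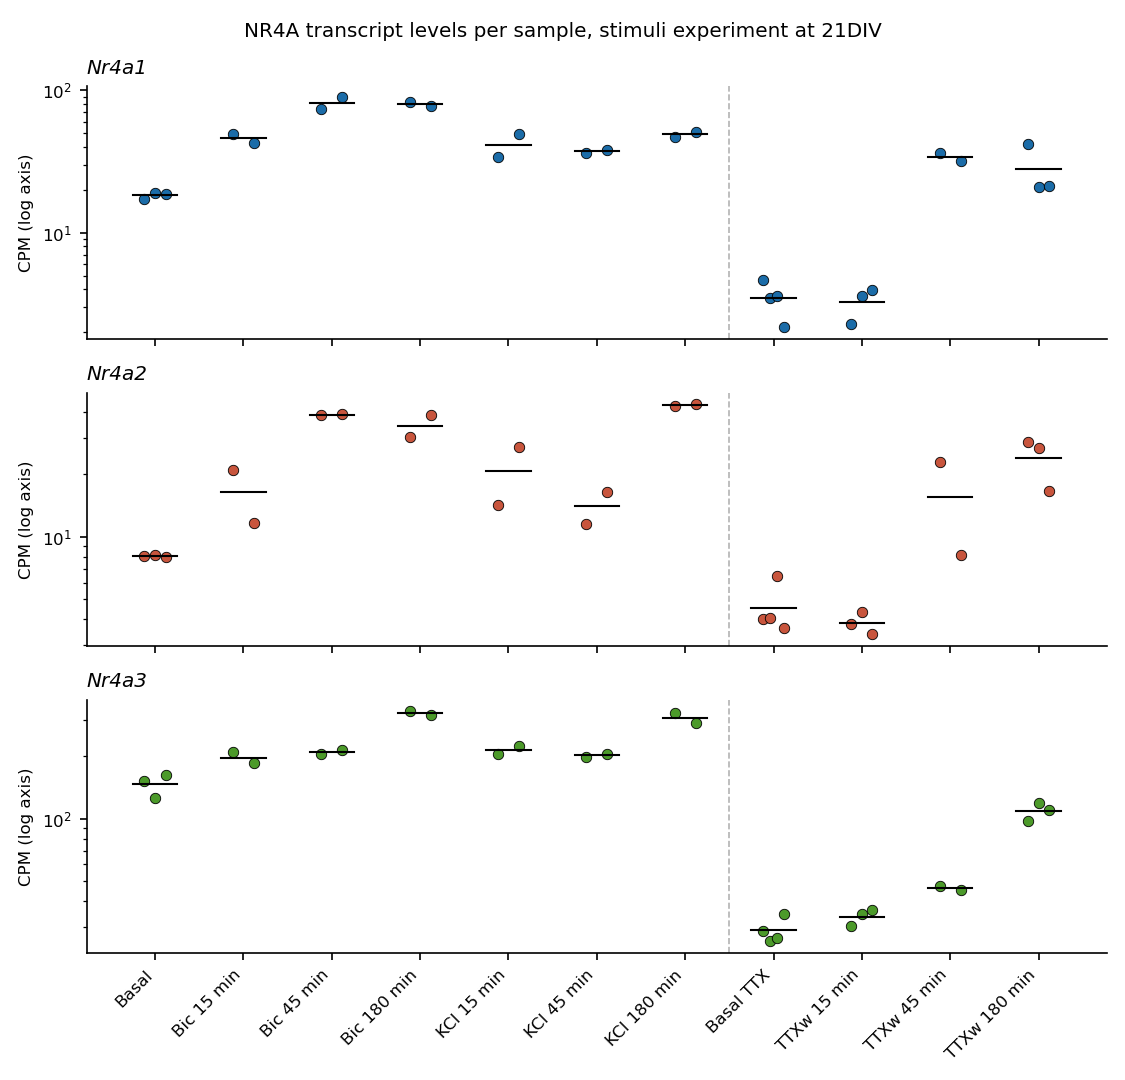
Level of each NR4A gene in every sample of the stimuli experiment at 21DIV, in CPM on a logarithmic axis, with points for samples and bars for group means. To the right of the dashed line are cultures silenced with TTX, where Nr4a1 goes from 2.17 to 4.66 CPM to 31.8 and 36.5 CPM at 45 min of withdrawal while Nr4a3 reaches 45.2 and 47.1 CPM.

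With TTXw the members were called at different times. At 15 min none was called (0% of genes called in edgeR and 0 in DESeq2, with 756 genes but no member at an unadjusted p under 0.05). Nr4a1 measured 2.27, 3.59 and 3.94 CPM, Nr4a2 3.38, 3.78 and 4.31 CPM and Nr4a3 30.2, 34.5 and 36.02 CPM, all overlapping the silenced samples. The intervals were wide for Nr4a1 (-0.96 to 0.82) and Nr4a2 (-1.10 to 0.70), which had 5 to 10 counts per sample, so that changes within these intervals were not detectable at this depth.

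At 45 min, when 0.349% of genes were called higher, Nr4a1 had risen 10.2-fold over basal TTX. It measured 31.8 and 36.5 CPM, and its log2 fold change of 3.36 ± 0.31 (n = 2 and 4; edgeR adjusted p = 4.9e-10) ranked 7th of 12027 genes. Nr4a2 measured 8.18 and 23.0 CPM, a change of 1.78 ± 0.39 (edgeR adjusted p = 0.018), and its call was lost without TTXw 45 min replicate 1 (0.90, adjusted p = 0.999) or without basal TTX replicate 2 or 4 (adjusted p = 0.052 and 0.11). Nr4a3 measured 45.2 and 47.1 CPM, above all silenced samples, and was not called (0.65 ± 0.17, edgeR adjusted p = 0.081), though it was without basal TTX replicate 4 (0.78, adjusted p = 0.045).

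At 180 min of TTXw all 3 were called higher than in basal TTX, as were 7.33% of genes. Nr4a1 measured 20.8, 21.3 and 41.9 CPM (3.06 ± 0.30, edgeR adjusted p = 5.1e-10), Nr4a2 16.7, 26.97 and 28.8 CPM (2.48 ± 0.33, edgeR adjusted p = 4.1e-07) and Nr4a3 96.8, 110 and 118 CPM (1.89 ± 0.14, edgeR adjusted p = 3.3e-13). No group overlapped its silenced baseline. From 15 to 45 min (0.258% of genes called higher) Nr4a1 rose by 3.43 ± 0.33 and Nr4a2 by 1.98 ± 0.42, while Nr4a3 changed by 0.47 ± 0.18 and was not called. The call of Nr4a2 in this step was lost without any of the 3 TTXw 15 min samples or TTXw 45 min replicate 1 (1.10, adjusted p up to 0.98).

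From 45 to 180 min of TTXw (5.56% of genes called higher) Nr4a3 rose by 1.24 ± 0.16 (edgeR adjusted p = 6.1e-07), whereas Nr4a1 changed by -0.29 ± 0.24 and Nr4a2 by 0.70 ± 0.32 without being called. Without TTXw 180 min replicate 1, whose Nr4a1 level was far above those of the others, Nr4a1 was called lower (-0.70, edgeR adjusted p = 0.045), and without TTXw 45 min replicate 1 Nr4a2 was called higher (1.57, edgeR adjusted p = 0.012). At 180 min astrocyte markers stood at 3265 to 4919 CPM, against 1930 to 2489 CPM in basal TTX. Oligodendrocyte markers stood at 1865 to 2474 CPM against 1492 to 1545 CPM. Neuronal markers stood at 2299 to 2836 CPM against 3552 to 4114 CPM. The part of these markers was not tested.

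Against cultures that were never silenced, the 3 members ended at different places. At 15 min of TTXw all 3 were called lower (10.2% of genes were), by -2.53 ± 0.33, -1.08 ± 0.40 and -2.14 ± 0.14 for Nr4a1, Nr4a2 and Nr4a3, with the call of Nr4a2 lost without any one of the 6 samples (adjusted p from 0.065 to 0.12). At 45 min (20.3% of genes called), Nr4a1 had passed the never-silenced level (0.90 ± 0.23, edgeR adjusted p = 0.0037), Nr4a3 was still below it (-1.67 ± 0.16, edgeR adjusted p = 1.4e-10) and Nr4a2 was not called (0.90 ± 0.35, edgeR adjusted p = 0.051). Without TTXw 45 min replicate 1 the call of Nr4a1 was lost (0.81, adjusted p = 0.060), and without replicate 3 Nr4a2 was called (1.51, adjusted p = 0.0030). At 180 min (17.1% of genes called higher), Nr4a2 stood above the never-silenced level (1.60 ± 0.29, edgeR adjusted p = 2.3e-05), and Nr4a1 by 0.61 ± 0.22 (edgeR adjusted p = 0.026), which was 0.21 (adjusted p = 0.51) without TTXw 180 min replicate 1 and was also lost without basal replicate 1 (0.56, adjusted p = 0.080). Nr4a3 was at -0.43 ± 0.12 (edgeR adjusted p = 0.0046), under the 1.5-fold difference, and all 3 of its samples (96.8 to 118 CPM) lay below the 3 basal ones (126.2 to 162 CPM).

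Over all comparisons of a stimulated group with its own baseline, the time at which a member was called differed. At 180 min each of the 3 was called higher in 6 of 7 comparisons, the exception being 4AP/Bic at 7DIV. The share of all genes called higher in these ran from 0% to 7.39%. At 45 min (0.349% to 4.5% of genes) Nr4a1 was called in 3 of 3, Nr4a2 in 2 of 3 and Nr4a3 in 0 of 3. The log2 changes of Nr4a3 ran from 0.46 to 0.65, and 2 of the 3 had an edgeR adjusted p over 0.05. At 15 min (0% to 4.53% of genes) Nr4a1 and Nr4a2 were each called in 2 of 7 and Nr4a3 in 0 of 7. With KCl in the stimuli experiment, Nr4a3 missed the call at 15 min on the fold alone (edgeR adjusted p = 0.0040). Comparisons of one experiment share their baseline samples, so these are not independent.

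The rest of the nuclear receptor class is given beside the family. At 180 min of KCl at 7DIV, 1 of 24 other receptors was called (Nr1d2, higher by 1.00 ± 0.21), against 1.98% of all genes. With KCl at 21DIV it was 0 of 24, against 4.89%. With 4AP/Bic at 21DIV 1 of 24 was higher (Nr1d1) and 3 were lower (Nr2f1, Nr2c2 and Nr3c1). Of all genes, 7.39% were called higher and 6.84% lower there. In the stimuli experiment at 180 min it was 0 of 27 with Bic and 1 of 27 with KCl (Ppara, a fatty acid receptor, 3.02 ± 0.57). In each of these 0.765% of all genes were called. With TTXw 1 was higher (Rorb, 1.23 ± 0.17) and 2 were lower (Esr1, an estrogen receptor, and Pgr), against 7.33% and 6.69% of genes. With TTX itself 4 were higher and 4 lower, with 10.8% of genes called in each direction. The medians of the other receptors stayed between -0.35 and 0.15 in the 180 min comparisons with baseline. No RXR gene was called in any comparison of a stimulus or of silencing with its baseline.

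**Figure D5:**
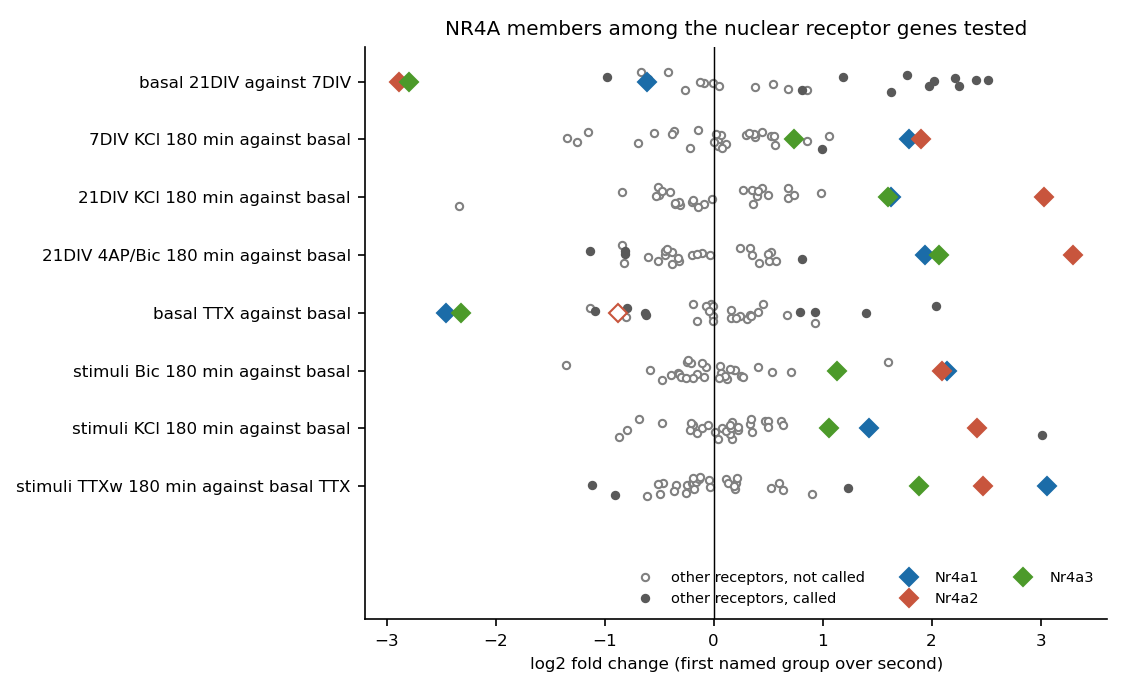
Log2 fold change of the NR4A genes (diamonds) and of the other nuclear receptors and RXR genes tested (circles) in 8 comparisons, with vertical scatter within a row added for legibility. Filled symbols were called. In the 6 rows at 180 min the NR4A diamonds lie at 0.74 and above, to the right of most circles.

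Genes upstream and downstream of the family were taken from lists of known regulators and reported targets. Of 12 regulators of NR4A transcription (the CREB, CRTC and MEF2 groups, Srf and class IIa histone deacetylases) 10 were tested in the maturation experiment. With KCl for 180 min at 7DIV 2 rose, where 1.05% of all genes were called higher. These were Srf, the serum response factor (1.66 ± 0.27), and Crem, a CREB relative (1.56 ± 0.19). With 4AP/Bic for 180 min at 21DIV 5 fell and none rose, where 6.84% of all genes were called lower and 7.39% higher. Among the 5 were Crtc1 (-1.11 ± 0.32) and Crtc3 (-1.08 ± 0.38), coactivators of CREB, and Srf (-1.11 ± 0.30). With KCl for 180 min at 21DIV none of the 10 was called, against 4.89% of all genes. All 3 NR4A members were called higher in each of these 3 comparisons, and a link to the regulators was not tested.

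Of 11 genes reported as NR4A targets, 6 were tested in the maturation and 7 in the stimuli experiment. Bdnf, a neurotrophin that is itself an activity-regulated gene, was called higher at 180 min with KCl (0.78 ± 0.23) and 4AP/Bic (1.21 ± 0.25) at 21DIV, with Bic (1.15 ± 0.18) and with TTXw (1.22 ± 0.23), and lower with TTX (-4.53 ± 0.19). With KCl for 180 min in the stimuli experiment, where all 3 NR4A genes were called higher, Bdnf was not called (0.58 ± 0.18, edgeR adjusted p = 0.13). At 7DIV with KCl, where all 3 NR4A genes rose, Bdnf was not called (0.35 ± 0.23, edgeR adjusted p = 0.58). With TTXw at 45 min, where Nr4a1 had risen 10.2-fold, it was not called either (0.24 ± 0.28). At most 2 targets were called higher in any comparison of a stimulus with its own baseline. Over these comparisons the share of all genes called higher ran from 0% to 7.39%. Vip, a neuropeptide, was higher with age (4.08 ± 0.52).

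Last, the pattern of each member over the 21 group means of log2 CPM, centred within each experiment, was set against those of 11289 genes tested in both experiments. The groups share baselines and come from 2 tables, so the correlations are a description. Nr4a1 was most like Fosb (Pearson r = 0.942), Fos (0.901) and Npas4 (0.857), immediate early transcription factors, followed by Ifrd1 (0.852) and Dusp1 (0.846), a phosphatase that acts on MAP kinases. Nr4a2 was most like Eif2s2 (0.88), a translation initiation factor, Chaserr and Ubn2 (both 0.874), with Nr4a3 as the fourth (0.858) and Fosb as the fifth (0.843). Nr4a3 was most like Cyp51, a sterol synthesis enzyme (0.954), then Atf4, Slc20a1 and Hdac5 (0.94 each) and Tes (0.936). Within the family r was 0.799 for Nr4a1 and Nr4a2 and 0.731 for Nr4a1 and Nr4a3. Within the maturation experiment (10 groups) Nr4a1 and Nr4a3 had an r of 0.574 and Nr4a2 and Nr4a3 of 0.912, and within the stimuli experiment (11 groups) these were 0.857 and 0.813.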

How the data were processed

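RNA of 55 samples of mouse forebrain neuronal cultures was profiled with CEL-Seq2. The authors deposited 1 table of counts per RefSeq transcript for each experiment, made from reads aligned to mm10 with STAR and counted with ESAT per the study's methods. Whether the counts are reads or unique molecules is not given in the sources used here. Transcripts were given symbols through RefSeq GRCm38.p6 (80.8% and 80.9% matched, 18.5% and 19.2% of counts unmatched), and each gene was read from its transcript with the most counts. The test covered genes exceeding 5 CPM in 2 samples or more and used edgeR 4.0.16 (quasi-likelihood, TMM, Benjamini-Hochberg), all samples of an experiment in 1 fit, or the 6 basal samples for the comparison of stages. SE is the log2 fold change divided by the root of the F statistic. The script was tested on simulated data. Alternatives were DESeq2, other size factors, no filter, the compared groups alone, sums over transcripts, a replicate block, and each sample left out. Transcripts of a gene can share reads, so the sums can count a read more than once. They came to 3.13 and 3.29 times the counts used in the maturation and stimuli experiments. Genes named besides the members were those called in a comparison with a baseline at an average log2 CPM of at least 3, at most 4 per list, by size of change. Receptors outside that rule were named after their values were seen. The members and lists were chosen with earlier results of these data known. Promoter windows are from RefSeq.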

Additional observations from a re-analysis of the deposited data

Results flagged for a closer look

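The response to 4AP/Bic at 180 min differed between the stages for every NR4A gene by the test of the difference itself (21DIV minus 7DIV, edgeR), by 1.41 on the log2 scale for Nr4a1, 2.80 for Nr4a2 and 1.82 for Nr4a3. Of 12 such differences over both stimuli and both times, these 3 passed. That of Nr4a1 was lost with a replicate block (1.16, edgeR adjusted p = 0.12), with counts summed over transcripts (1.44, adjusted p = 0.061) and without any one of 9 of 11 samples. In basal TTX, 1 of 4 samples (replicate 3) stood apart for Nr4a2, at 6.44 CPM against 3.62 to 4.07 CPM. It rests on 9 counts, and of the 3 genes it was the one to stand out in this group, the 1 group of the study with enough samples for the check. For each gene checked, chance sets apart about 1 in 20 such groups, and 3 genes were checked.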

How the results depend on the processing

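The number of members called was kept, within 1.5 times, under every alternative and every left-out sample in 24 of 39 comparisons, and no called value changed sign. A fall from 3 members to 2 counts as kept by this rule, so it does not show the loss of 1 member where 3 were called. Such a loss occurred among others for the basal stages, for KCl 180 min at 7DIV and for the 4AP/Bic 180 min difference between stages. Of 58 called member values 37 kept their call throughout. Fits on the compared groups alone called 0 members from 15 to 180 min of KCl at 21DIV, 1 between Bic and KCl at 180 min, 2 from 45 to 180 min of KCl, 1 for TTXw 180 min against basal and 1 for TTXw 45 min against basal TTX. Without the filter on low counts 2 were called for the KCl 180 min response between stages, 1 from 15 to 45 min of Bic and 1 for TTXw 180 min against basal. DESeq2 called 1 for Bic 15 min against basal. From 45 to 180 min of KCl it called 1, Nr4a3 in place of Nr4a2, for which it gave no adjusted p, and it gave none for Nr4a2 from 15 to 45 min of TTXw. Counts summed over transcripts gave 1 for Bic 15 min, 0 for KCl 45 min, 0 between Bic and KCl at 45 min and 0 from 45 to 180 min of KCl. The cause was not tested.

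Leaving out single samples, the number called ranged from 0 to 2 for the KCl 180 min response between stages, from 1 to 2 for Bic 15 min, from 0 to 3 for KCl 15 min, from 0 to 1 for KCl 45 min, from 0 to 2 between Bic and KCl at 45 min, and from 1 to 2 for TTXw 45 min against basal TTX. It was 0 throughout from 45 to 180 min of Bic and of KCl, against 1 with all samples. It ranged from 1 to 2 for TTXw from 15 to 45 min and from 45 to 180 min, from 1 to 3 for TTXw 45 min against basal and from 1 to 2 for TTXw 180 min against basal. Where this left 1 sample in a group, that sample was assumed to vary like the other groups.

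Samples share only a number across groups. In the maturation experiment 1 pair of same-numbered samples had a correlation of deviations over 0.1, and in the stimuli experiment 0 had. With a replicate block, 1 member was called for Bic 15 min against basal, 0 for KCl 45 min against basal and 1 for TTXw 45 min against basal TTX. The block also ended the calls of Nr4a1 between the basal stages (-0.50, edgeR adjusted p = 0.15) and in the 4AP/Bic 180 min difference between stages (1.16, 0.12), and of Nr4a2 for TTXw 15 min against basal (-0.98, 0.11). It added calls of Nr4a3 for Bic 45 min and KCl 15 min and of Nr4a2 for TTXw 45 min against basal, and changed no other call. The number of genes called over the whole table moved by more than 1.5 times in 19 of 39 comparisons without the filter, 17 with summed transcripts, 15 of 38 with the compared groups alone, 12 with the block, 8 with DESeq2 and 0 with other size factors. Depth limits Nr4a1 and Nr4a2 in silenced cultures, with 5 to 10 counts per sample.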
